A study of Mus musculus with 19 samples.

Results

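The genes described here are the proteasome genes of the mouse kidney, taken as every protein-coding row of the count table whose symbol begins with Psma, Psmb, Psmc, Psmd, Psme, Psmf or Psmg followed by a digit. The rule gave 50 of the 54532 genes in the table. They are 7 alpha and 7 beta subunits of the constitutive core particle, 5 immunoproteasome genes, 2 tissue-specific core subunits, 6 ATPases and 11 other subunits of the regulatory particle, 7 assembly chaperones, 3 other activators or regulators, and 2 genes that carry the symbol pattern but stand apart. The measurements were read counts from bulk RNA-seq of 19 whole obstructed kidneys, 1 per mouse. All mice were males of 8 to 9 weeks on a C57BL/6J background, all had the left ureter ligated and partly removed (unilateral ureteral obstruction, UUO), and all kidneys were collected on day 12. WT mice given PBS (5 kidneys), WT mice given recombinant CD5L protein (rCD5L) at 0.5 mg per mouse and day (5 kidneys), CD5L KO mice given PBS (4 kidneys) and CD5L KO mice given the same dose of rCD5L (5 kidneys) were compared. Every kidney was obstructed, so the effect of obstruction itself cannot be read from these libraries.

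The proteasome is the main protease of the cytosol and nucleus and degrades proteins that carry ubiquitin chains. Its barrel-shaped core, the 20S particle, is built of rings of alpha subunits (the gate) and rings of beta subunits, of which Psmb5, Psmb6 and Psmb7 carry the active sites. The 19S regulatory particle binds ubiquitinated substrates, removes the chain and, through a ring of ATPases, unfolds the protein and feeds it into the core. In leukocytes and in cells that receive interferon gamma, Psmb8, Psmb9 and Psmb10 take the places of Psmb5, Psmb6 and Psmb7, and Psme1 and Psme2 form the PA28 activator. This form, the immunoproteasome, is known for producing peptides for MHC class I presentation. Proximal tubule cells reabsorb and break down large amounts of protein, and infiltrating leukocytes and interferon signalling are both features of the obstructed kidney.

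Libraries held between 17917491 and 23847090 counts. Counts of Cd5l, the deleted gene, were 0 in all 9 CD5L KO kidneys and 3 to 15 in the 10 WT kidneys. CD5L KO rCD5L replicate 4 stood apart from the other libraries. Its TMM factor, the scaling factor of edgeR, was 0.6817, against 0.8736 to 1.071 elsewhere, and its 10 most abundant genes took 15.4% of its counts, against 5.55% to 9.23%. The summed level of 10 proximal tubule markers was 22400 CPM (counts scaled to library size) in it and 1690 to 3760 in the others, and that of 3 leukocyte markers was 133, against 309 to 467. Fold changes, medians and ratios that involve its group are given with and without it, except those from fits with a length term and the median of the interferon signalling genes, which are given with it. In whole kidney, fewer cells of a type and less RNA per cell cannot be told apart.

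The start regions of the catalytic subunits and of a pair of core subunits whose CPM differed between the genotypes under PBS are shown first, because they are where the known regulators of these genes act. Nrf2 binds the antioxidant response element and Nrf1 (Nfe2l1) a related one, the latter driving proteasome genes when the proteasome is inhibited. Interferon factors bind the interferon-stimulated element and the gamma-interferon-activated site, and NF-Y binds the CCAAT box. Of the 50 genes, 42 matched an entry of the RefSeq promoter table (GRCm38.p6), which holds 250 bases before and 50 after each start. Psma8, Psmb1, Psmb2, Psmb7, Psmc3, Psmd3, Psmd7 and Psmg2 had no entry. The 120 bases before the start are printed 5′ to 3′ on the gene's strand, and capitals mark a match to TGACNNNGC (antioxidant response element core), GAAANNGAA (interferon-stimulated element), TTCNNNGAA (gamma-interferon-activated site) or CCAAT, on either strand. No matches overlapped in these windows.
Psmb5, chr14:54617996-54618115, minus strand: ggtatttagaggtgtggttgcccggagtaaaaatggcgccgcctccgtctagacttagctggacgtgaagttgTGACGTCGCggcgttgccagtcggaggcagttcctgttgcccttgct
Psmb6, chr11:70525237-70525356, plus strand: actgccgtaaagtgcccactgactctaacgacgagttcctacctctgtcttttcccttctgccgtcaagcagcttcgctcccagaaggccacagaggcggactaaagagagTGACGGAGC
Psmb8, chr17:34198075-34198194, plus strand: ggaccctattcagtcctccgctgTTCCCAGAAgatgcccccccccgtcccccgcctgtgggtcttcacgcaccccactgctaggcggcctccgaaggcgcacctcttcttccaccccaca
Psmb9, chr17:34187331-34187450, minus strand: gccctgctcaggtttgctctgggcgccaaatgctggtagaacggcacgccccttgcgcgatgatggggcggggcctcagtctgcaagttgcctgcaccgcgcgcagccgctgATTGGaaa
Psmb10, chr8:105938393-105938512, minus strand: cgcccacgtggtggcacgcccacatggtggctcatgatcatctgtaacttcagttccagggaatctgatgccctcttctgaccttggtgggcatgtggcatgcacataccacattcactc
Psma1, chr7:114276117-114276236, minus strand: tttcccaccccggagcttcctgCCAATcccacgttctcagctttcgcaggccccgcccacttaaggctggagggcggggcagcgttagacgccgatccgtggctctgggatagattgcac
Psmb3, chr11:97703314-97703433, plus strand: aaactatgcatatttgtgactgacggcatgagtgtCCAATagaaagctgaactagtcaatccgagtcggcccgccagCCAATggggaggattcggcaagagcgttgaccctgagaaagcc
A match to TGACNNNGC lay 47 bases before the start of Psmb5 and 9 before that of Psmb6, and TTCNNNGAA lay 97 bases before that of Psmb8. A CCAAT box lay 98 bases before the start of Psma1, 85 and 43 before that of Psmb3, and, on the other strand, 8 before that of Psmb9. The windows of Psmb8 and Psmb9 lie within the longer extents that the count table gives these genes, and Psmb9 overlaps Tap1 on the other strand. Over the whole 300-base entries, TGACNNNGC was present in 6 of 42 genes (14.3%, Psmb5, Psmb6, Psmc6, Psmd9, Psmd12 and Psme4), against 12.4% of all 32851 entries. GAAANNGAA was present in 7 (16.7% against 8.56%), TTCNNNGAA in 3 (7.14% against 8.3%) and CCAAT in 15 (35.7% against 37.4%). Of the 11 constitutive core subunits with an entry, 6 held CCAAT, and of the 5 immunoproteasome genes, Psme1 held GAAANNGAA, Psmb8 TTCNNNGAA and Psmb9 CCAAT. These counts describe letters in a window and were not tested.

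Levels per length are given as the deposited FPKM, which divides counts by gene length and by a scaled library size. Psmb5, which carries the chymotrypsin-like site, was the highest member on this measure, with a median of 107 FPKM over the 19 kidneys (lowest 85.4, highest 192). Psmb4, a structural beta subunit, followed at 80 FPKM, then Psma6 at 71.7 and the ATPases Psmc1 and Psmc5, both at 68. These neighbours did not separate beyond their spread, since Psmb4 ranged from 71.5 to 115 and Psma6 from 61.5 to 91.5. The medians of the 7 beta subunits ran from 19.9 FPKM (Psmb7) to 107, those of the 7 alpha subunits from 22.9 (Psma3) to 71.7, those of the 6 ATPases from 20 (Psmc2) to 68, and those of the 11 other regulatory subunits from 10 (Psmd11) to 58.8 (Psmd8). Subunits that stand in the particle in equal numbers thus differed in FPKM by several fold. FPKM depends on the gene lengths given, such as 899 bases for Psmb5 and 3421 for Psmb7, which need not be those of the transcripts present. On mean CPM in WT PBS kidneys, the beta subunits ran from 79.2 (Psmb7) to 185 (Psmb4), with Psmb5 at 118.

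Among the immunoproteasome genes the median levels were 57.1 FPKM for Psme1, 39.2 for Psmb10, 32.1 for Psme2, 19.5 for Psmb8 and 8.34 for Psmb9. On FPKM, Psmb10 was above its constitutive counterpart Psmb7 in 18 of 19 kidneys, while Psmb8 and Psmb9 were below Psmb5 and Psmb6 in all of them. The order of Psmb10 and Psmb7 depends on the gene lengths given, 1705 and 3421 bases. On mean CPM, Psmb10 was below Psmb7 in WT PBS (76.9 against 79.2) and CD5L KO PBS kidneys (88.2 against 98.5). It was also below in CD5L KO rCD5L kidneys (90.5 against 103, with replicate 4) and above in WT rCD5L kidneys (78.8 against 75). The coefficient of variation over kidneys was 12.5% to 24.1% for these 5 genes (median 22.4%), 10.6% to 14.4% for the alpha subunits and 11% to 22.2% for the beta subunits. The assembly chaperones were lower, from 2.21 FPKM (Psmg3) to 26.4 (Psmg4). Psma8, the testis alpha subunit, had a median of 0.153 FPKM, and Psmb11, the thymus beta subunit, had counts of 0 in 18 kidneys and 2 in the other. The remaining 48 members had at least 10 counts in every kidney.

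CD5L KO and WT kidneys under PBS were compared first, a comparison that asks what the absence of CD5L changes in the obstructed kidney. Transcripts of most core subunits were higher in CD5L KO kidneys. Of its 14 constitutive subunits, 12 passed the test (edgeR quasi-likelihood, Benjamini-Hochberg adjusted p under 0.05 over all 17579 genes tested) and all 12 were higher, by 0.20 to 0.36 on the log2 scale. Of 49 members tested, 18 were called, all of them higher, against 5.13% of all genes called higher and 5.4% called lower. The median log2 fold change was 0.18 over the 49 members and 0.28 over the core subunits, and the median of all genes rounded to 0. In 18 members, 11 of them core subunits, every CD5L KO kidney lay above every WT kidney (7.35% of all genes did so), and in 1, Psmc4, every one lay below (6.75%). Fold changes were positive in 44 members (49.3% of all genes), and 24 members were higher and 1 lower at an unadjusted p under 0.05, against 12.6% and 14% of all genes.

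**Figure D1:**
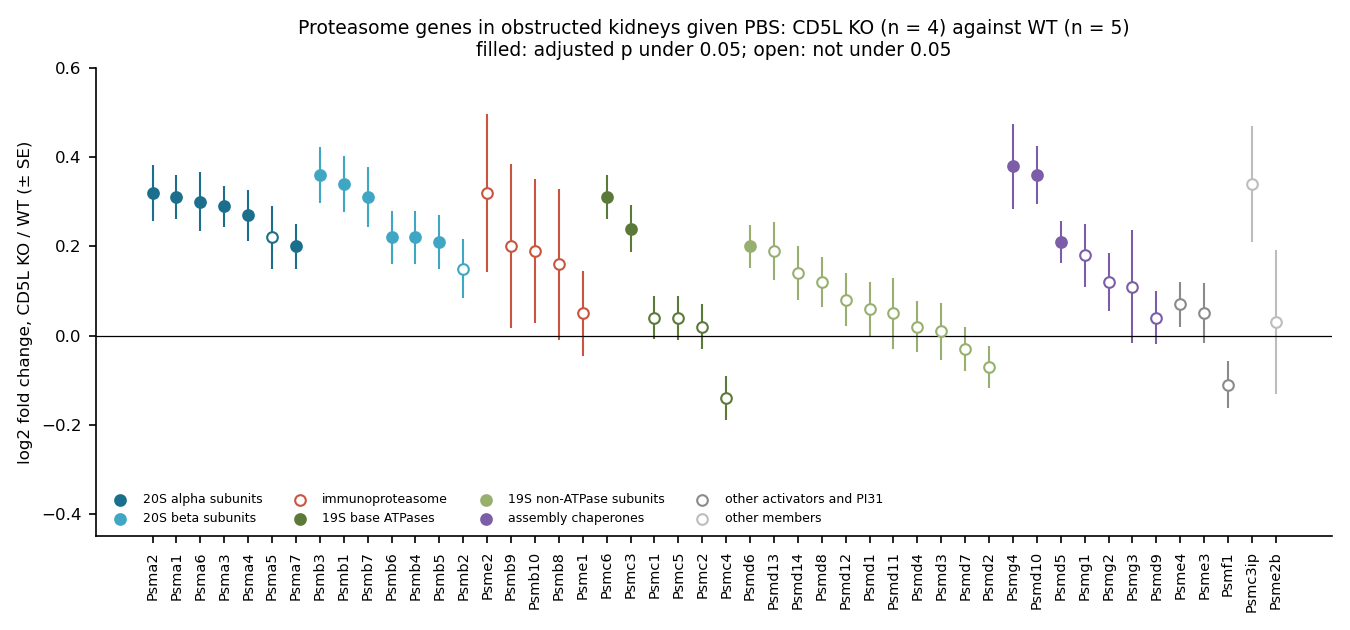
Log2 fold change of each member in CD5L KO over WT kidneys under PBS (y axis, bars ± SE), by class (x axis, Psma8 not drawn), with filled points for members called at an adjusted p under 0.05. Filled points make up 12 of 14 core subunits, 3 of 17 regulatory subunits, 3 of 7 chaperones and none of the 5 immunoproteasome genes.

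Psmb3, a beta subunit without an active site, showed the largest difference of the core. Its level was 103, 102, 109, 92.4 and 103 CPM in the WT kidneys and 134, 133, 141 and 118 CPM in the CD5L KO kidneys, so that the groups did not overlap, and the log2 fold change was 0.36 (SE 0.0628, adjusted p = 0.00671). Psmb1, also a beta subunit without an active site, had 160, 158, 162, 152 and 148 CPM in WT kidneys and 203, 195, 216 and 177 in CD5L KO kidneys (0.34, adjusted p = 0.00798). Psma1 of the alpha ring had 140, 131, 137, 127 and 136 CPM against 171, 168, 170 and 161 (0.31, SE 0.0496, adjusted p = 0.00553), the smallest p-value among the members. In each of these 3 genes the lowest CD5L KO kidney was replicate 4 and stood above the highest WT kidney. Psma3, also of the alpha ring, rose from a mean of 107 ± 3.42 CPM (SD, n = 5) to 131 ± 2.98 (n = 4), with a log2 fold change of 0.29 (adjusted p = 0.00566). The other alpha subunits that rose were Psma2 (0.32), Psma6 (0.30), Psma4 (0.27) and Psma7 (0.20). Psma5, with 0.22 (adjusted p = 0.0653), and Psmb2, with 0.15 (adjusted p = 0.168), were the 2 core subunits that did not pass, and both were named after their values were seen.

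The 3 catalytic subunits of the constitutive core were all called higher. Psmb7, the trypsin-like subunit, was at 82.9, 79.5, 84, 70.3 and 79.4 CPM in WT kidneys and at 96.4, 94.9, 110 and 92.3 in CD5L KO kidneys (log2 fold change 0.31, SE 0.0675, adjusted p = 0.0154). Psmb6, the caspase-like subunit, was at 131, 120, 138, 127 and 117 CPM against 149, 153, 153 and 138 (0.22, adjusted p = 0.0349). Psmb5 was at 119, 112, 127, 113 and 117 CPM against 134, 135, 151 and 127 (0.21, adjusted p = 0.0436). The Psmb7 groups were fully separate, the lowest CD5L KO value of Psmb6 stood just above the highest WT value, and the Psmb5 groups overlapped, the highest WT and the lowest CD5L KO kidney both being at 127 CPM. With a gene length term Psmb5 was at 0.06 (adjusted p = 0.576) and Psmb6 at 0.14 (adjusted p = 0.124), while Psmb7 was at 0.29 (adjusted p = 0.0231). Of the 9 fits that each left out 1 kidney, Psmb7 was called in 9, Psmb6 in 3 and Psmb5 in 2. Psmb4 also rose (0.22, adjusted p = 0.0357), and was called in 3 of these fits and not with the length term.

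The regulatory particle was uneven. Of the 17 subunits, 14 had positive fold changes, 3 were called, all higher, and the median log2 fold change was 0.05. Among the 6 ATPases of the base, Psmc6 rose by 0.31 (SE 0.0496, adjusted p = 0.00566), from 106, 114, 111, 108 and 112 CPM in WT kidneys to 139, 136, 145 and 130, and Psmc3 by 0.24 (adjusted p = 0.0162), from a mean of 188 ± 7.96 to 223 ± 9.02 CPM. These were the sole ATPases whose CD5L KO kidneys all lay above the WT kidneys. Psmc1, Psmc2 and Psmc5 did not pass, and their groups overlapped. Psmc4, named after its values were seen, was lower in every CD5L KO kidney, at 95.1, 96.2, 103 and 102 CPM against 107, 110, 114, 106 and 106, but did not pass (-0.14, adjusted p = 0.0864). ATPases of 1 ring, which the particle holds in equal numbers, therefore had fold changes of both signs. Among the 11 other subunits, which include the ubiquitin receptors, the deubiquitinase Psmd14 and scaffold proteins, Psmd6 rose (0.20, SE 0.0479, adjusted p = 0.0199), with 103, 102, 102, 96.8 and 94.9 CPM in WT kidneys and 119, 116, 113 and 113 in CD5L KO kidneys. Psmd13, which shares its locus with Sirt3, gave 0.19 (adjusted p = 0.0824), and the other 9 did not pass.

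The assembly chaperones guide subunits into the core (Psmg1 to Psmg4) or the regulatory base (Psmd5, Psmd9 and Psmd10) and leave before the particle is complete. All 7 had positive fold changes and 3 passed. Psmd10 rose from 37.4, 36.9, 34.9, 33.8 and 40.5 CPM to 45.6, 48.4, 50.7 and 44.6, a log2 fold change of 0.36 (SE 0.0659, adjusted p = 0.00798) with no overlap. Psmg4 rose by 0.38 (SE 0.0954, adjusted p = 0.0275), with 16.6, 15.7, 18.4, 14.8 and 14.4 CPM in WT kidneys and 22.2, 22.2, 21.2 and 17.7 in CD5L KO kidneys, of which the last lay below the highest WT kidney. Psmd5 rose by 0.21 (adjusted p = 0.018), from a mean of 56 ± 2.09 to 65.1 ± 0.926 CPM. Of the regulators, Psme4, the PA200 activator, gave 0.07 (adjusted p = 0.406) and Psmf1, the inhibitor PI31, gave -0.11 (adjusted p = 0.223).

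None of the 5 immunoproteasome genes passed in edgeR's test, against 10.5% of all genes called. None reached an unadjusted p under 0.05 either, against 26.6% of all genes, although all 5 had positive fold changes. With only 5 genes, these counts cannot set the class apart from those shares. Psmb8 was at 84, 53.7, 44.7, 51.1 and 54 CPM in WT kidneys and at 80.2, 66.6, 51.7 and 60.4 in CD5L KO kidneys (log2 fold change 0.16, SE 0.169, adjusted p = 0.588). WT PBS replicate 1 was the highest of the 9 kidneys, and the groups overlapped. Psmb9 was at 51.1, 29.7, 28.2, 28.3 and 30 CPM against 50.4, 35.3, 32.2 and 36 (0.20, SE 0.184, adjusted p = 0.546), and Psmb10 at 112, 74.6, 62.5, 65.9 and 69.6 against 107, 89.1, 71.1 and 85.7 (0.19, adjusted p = 0.494). In all 3 genes WT PBS replicate 1 and CD5L KO PBS replicate 1 were the highest kidneys of their groups. The SE of these 3 fold changes was 0.162 to 0.184, against 0.0462 to 0.0704 for the core subunits (Psma3 to Psma5). Without WT PBS replicate 1 the median fold change of the 5 genes was 0.37, and still none passed, against 9.94% of all genes called. Psme1 gave 0.05 (adjusted p = 0.793).

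Psme2 is given separately because a second gene, Psme2b, carries the symbol of a copy of it, and reads may match both. Psme2 gave 0.32 (SE 0.177, adjusted p = 0.27), and Psme2b, a gene of 837 bases on chromosome 11, had 39.5 ± 10.2 CPM (SD, n = 5) in WT and 40.5 ± 3.88 (n = 4) in CD5L KO kidneys. The share of Psme2b in the summed counts of both rows ranged from 26.4% in WT PBS replicate 2 to 62.6% in WT rCD5L replicate 5, where 880 counts were given to Psme2 and 1474 to Psme2b. The share exceeded 50% in WT PBS replicate 5, WT rCD5L replicate 4 and WT rCD5L replicate 5, and was 29.6% to 47.4% in the CD5L KO kidneys. How reads that match both were counted is not given in the sources used here, so values of either row are uncertain. With both rows summed, the fold change in CD5L KO over WT kidneys under PBS was 0.22 (adjusted p = 0.199).

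**Figure D2:**
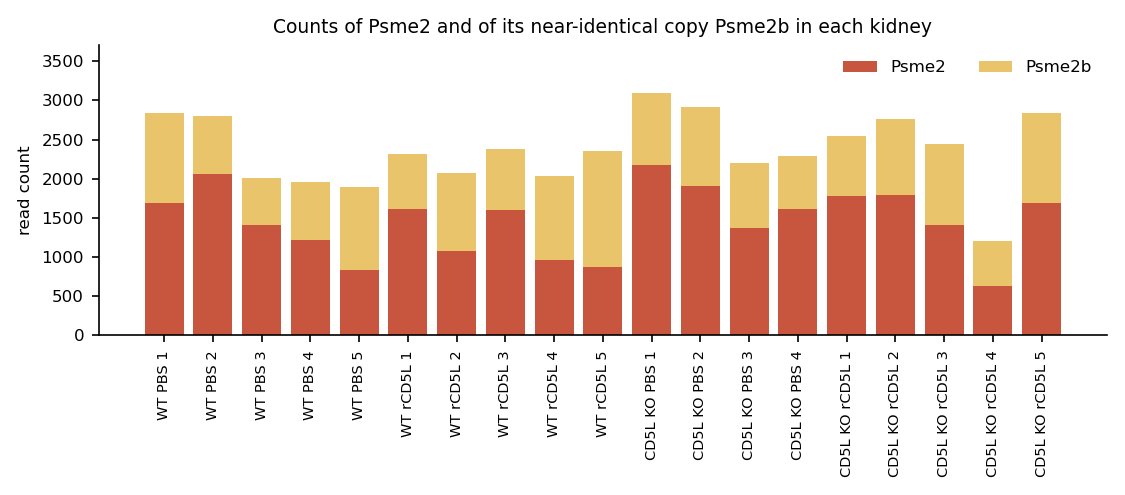
Read counts of Psme2 and Psme2b (stacked bars, y axis) in each of the 19 kidneys (x axis). The Psme2b part varies between 26.4% and 62.6% of the bar.

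Genes that work with the proteasome were read from lists chosen with earlier results of these data known. Of 22 partners, 21 were tested, 3 were called higher and 2 lower, against 5.13% and 5.4% of all genes. Pomp, the chaperone that matures the beta ring, rose by 0.31 (SE 0.0518, adjusted p = 0.00621), Sem1, the smallest regulatory subunit, by 0.28 (adjusted p = 0.0175), and Ngly1, the glycanase that acts on Nfe2l1, by 0.23 (adjusted p = 0.0262). Ddi2, the protease that cleaves Nfe2l1, fell by 0.21 (adjusted p = 0.0281) and Ipo9, an importin that carries proteasomes into the nucleus, fell by 0.23 (adjusted p = 0.0366). Nfe2l1 itself gave -0.05 (adjusted p = 0.6) and the ubiquitin receptor Adrm1 gave -0.03. Among 5 genes of ubiquitin supply, Uba1, the main activating enzyme, fell by 0.27 (adjusted p = 0.00873) and the other 4 did not pass. With the length term of the next paragraph, Pomp, Sem1, Ngly1 and Uba1 stayed past the threshold, while Ddi2 (adjusted p = 0.137) and Ipo9 (adjusted p = 0.126) did not. None of 12 genes of class I antigen processing passed (2 at an unadjusted p under 0.05), against 26.6% of all genes, with B2m at 0.38 (adjusted p = 0.154), Tap1 at 0.03 and Nlrc5 at -0.19. None of 8 tested interferon signalling genes passed (1 at an unadjusted p under 0.05, against the same 26.6%), with Irf1 at -0.04.

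Values that moved with this comparison are given beside it. Fold changes fell with gene length over all 17579 genes (Spearman correlation -0.277 across genes, which are not independent), and the members are short, with a median length of 2736 bases against 3810. With a length term, which left 3.88% of all genes called higher, 13 of the 18 members were called higher, 8 of them core subunits, Psmc4 was called lower (-0.20, adjusted p = 0.0287), and the median of the members was 0.11. Psma6, Psmb4, Psmb5, Psmb6 and Psmg4 were the 5 calls lost. Of 6 fibroblast and myofibroblast markers, 5 were lower, 4 of them called. The summed level of the 6 was 2220 to 3000 CPM in CD5L KO kidneys against 3160 to 4870 in WT kidneys. All 5 endothelial markers were lower, 3 of them called (421 to 470 against 504 to 578 CPM summed). Of 8 macrophage markers 5 were lower, 1 of them called, and 3 were higher (1730 to 2800 against 1880 to 2470). Of 10 proximal tubule markers, 5 were higher, 1 of them called, and 5 were lower. Their summed levels were 1940 to 3410 CPM in CD5L KO and 2060 to 3760 in WT kidneys. Of 3 leukocyte, 8 T cell and NK, 4 B cell and 5 distal nephron markers, none was called. All 4 podocyte markers were lower, 1 of them called. No marker was at 0 in any group. Their part in the rise of the core subunits was not tested. In a single fit over all 19 kidneys, none of the 49 members passed (12 of 18454 genes did). With CD5L KO rCD5L replicate 4 left out of that fit, 11 of the 18 passed, all higher, against 1.9% of all genes called higher.

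**Figure D3:**
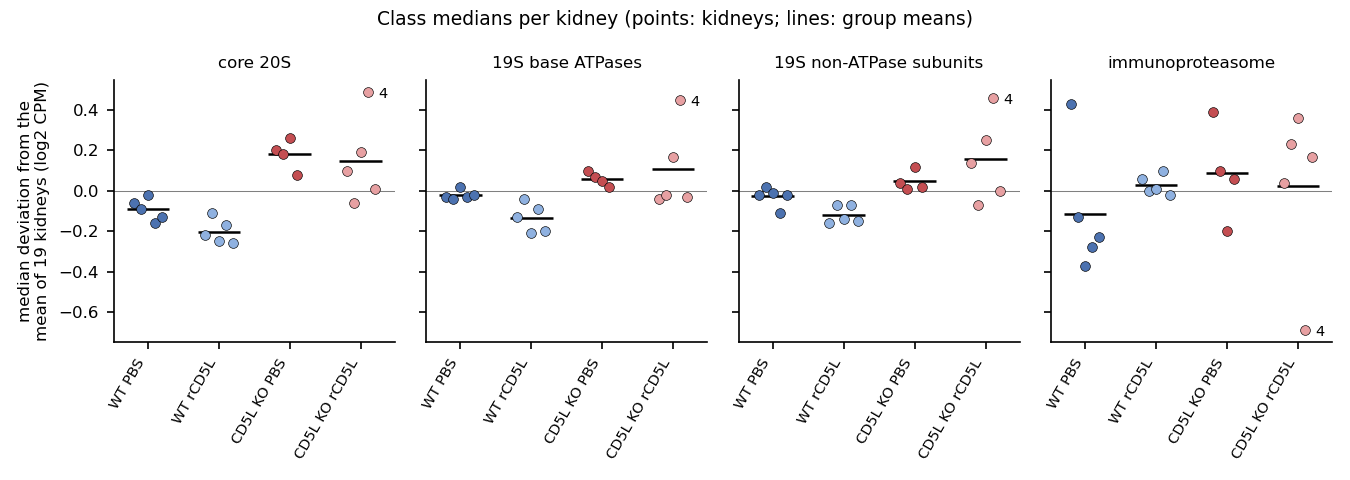
Median deviation of each class from its mean over the 19 kidneys (y axis, log2 CPM) for each kidney (points), by group (x axis), with group means as lines and CD5L KO rCD5L replicate 4 marked. Core medians were -0.16 to -0.02 in WT PBS, -0.26 to -0.11 in WT rCD5L, 0.08 to 0.26 in CD5L KO PBS and -0.06 to 0.49 in CD5L KO rCD5L kidneys, and the marked kidney is the highest for the core and regulatory classes and the lowest for the immunoproteasome, at -0.69.

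CD5L KO and WT kidneys that both received rCD5L gave the same comparison in kidneys that the first did not use. Of 48 members tested, 45 were higher in CD5L KO kidneys (48.9% of all genes were), with a median log2 fold change of 0.24, beside -0.01 over all genes. No member was called by edgeR, and neither was any other gene (0.0%). At an unadjusted p under 0.05, 20 members were higher, against 11% of all genes, and none was lower, against 6.8%, and DESeq2 called 2 (Psmb2 and Psmg4), both higher, against 0.34% of all genes called higher. Without CD5L KO rCD5L replicate 4 the median was 0.18, with 45 members higher and 19 at an unadjusted p under 0.05. All 14 core subunits were higher, by 0.20 to 0.55 (0.14 to 0.46 without that replicate), and in 9 of them no CD5L KO kidney overlapped a WT kidney. Over all members this held for 14, against 4.62% of genes, and no member had every CD5L KO kidney below (2.9%). All 18 members called under PBS were higher again under rCD5L, with a median of 0.29 under PBS and, under rCD5L, of 0.35 with and 0.26 without CD5L KO rCD5L replicate 4.

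Psmb5 was at 103, 112, 92.6, 106 and 95.1 CPM in WT kidneys given rCD5L and at 115, 116, 215, 188 and 124 in CD5L KO kidneys given rCD5L, so that replicates 3 and 4 stood far above the others while all 5 stood above the WT kidneys (log2 fold change 0.55, SE 0.179, adjusted p = 0.259). Psmb6 had 113, 122, 109, 112 and 99.4 against 124, 121, 190, 186 and 121 CPM (0.39), and Psmb7 had 72, 78.8, 70.3, 80.3 and 73.7 against 97.5, 84.9, 99.2, 154 and 82.2 (0.44). Psmb2 had a narrower spread, with 74.4, 80.5, 73, 75.5 and 77.3 CPM against 98.5, 89.8, 102, 111 and 91 (0.35, SE 0.0894, unadjusted p = 0.00233, adjusted p = 0.259). Psmg4 was at 15.6 to 17.8 CPM in the 5 WT kidneys and at 19.6 to 23.1 in the 5 CD5L KO kidneys (0.36, adjusted p = 0.259). The regulatory subunits were higher as well, with a median of 0.24 over 17. The members of the other classes with the smallest p-values were Psma4 (0.38), Psmc3 (0.38), Psmd13 (0.50) and Psme3 (0.23), none of which passed. Without CD5L KO rCD5L replicate 4 the fold changes were 0.46 for Psmb5, 0.30 for Psmb6, 0.26 for Psmb7, 0.30 for Psmb2 and 0.33 for Psmg4. Those of Psma4, Psmc3, Psmd13 and Psme3 became 0.27, 0.28, 0.43 and 0.16.

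CD5L KO rCD5L replicate 4 held the highest level of the 19 kidneys in 27 of the 48 members with at least 10 counts throughout, and replicate 3 in 14. Without replicate 4, all 18 members called under PBS were still higher under rCD5L, the median over the core was 0.26 and that over the regulatory subunits 0.14. With 18 kidneys in 1 fit and replicate 4 left out, 8 members passed in this comparison, all higher (2.02% of all genes were called higher), and with all 19 in 1 fit 15 did (5.03%). The 5 immunoproteasome genes gave a median of 0.04, and 0.16 without replicate 4. Psmb8 gave -0.02 and Psmb9 -0.11, which became 0.16 and 0.04 without replicate 4, while Psmb10 gave 0.18 and Psme2 0.31, which became 0.33 and 0.41. Without replicate 4 all 5 were higher and 2 reached an unadjusted p under 0.05, against 3 higher and 0 at that threshold with it. None of the 5 passed in edgeR's test with or without it.

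Markers of other cells also differed between these groups, with none called. All 10 proximal tubule markers were higher in CD5L KO kidneys (median 1.76, 7 at an unadjusted p under 0.05), and 8 of 10 were without replicate 4 (median 0.30, 4 at that threshold). Their summed level was 2330 to 3480 CPM in the other 4 CD5L KO kidneys and 1690 to 2580 in WT kidneys. All 3 leukocyte markers were lower (median -0.23, none at that threshold), with a median of -0.01 without replicate 4. All 8 macrophage (median -0.17) and all 4 B cell markers (median -0.34) were lower, none at that threshold. All 5 distal nephron markers were higher (median 0.37), none at that threshold. Without replicate 4 these 3 medians were 0.07, -0.15 and 0.03. All 8 T cell and NK markers were lower (median -0.34, none at that threshold), and 7 of 8 were without replicate 4 (median -0.22). All 8 interferon signalling genes tested were lower with all kidneys (median -0.20, 1 at that threshold). All 4 podocyte markers (median -0.45, and -0.37 without replicate 4), 3 of 5 endothelial and 2 of 6 fibroblast markers were lower at that threshold, and the same numbers were without replicate 4. The part of these markers in the differences was not tested. Fold changes fell with gene length over all genes (Spearman correlation -0.276), and a length term left the median of the members at 0.23 and that of the core at 0.32, with all 14 core subunits higher and 9 at an unadjusted p under 0.05. With it Psmb5 was at 0.38, Psmb2 at 0.21 and Psmg4 at 0.20, while Psmb7 was at 0.45.

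**Figure D4:**
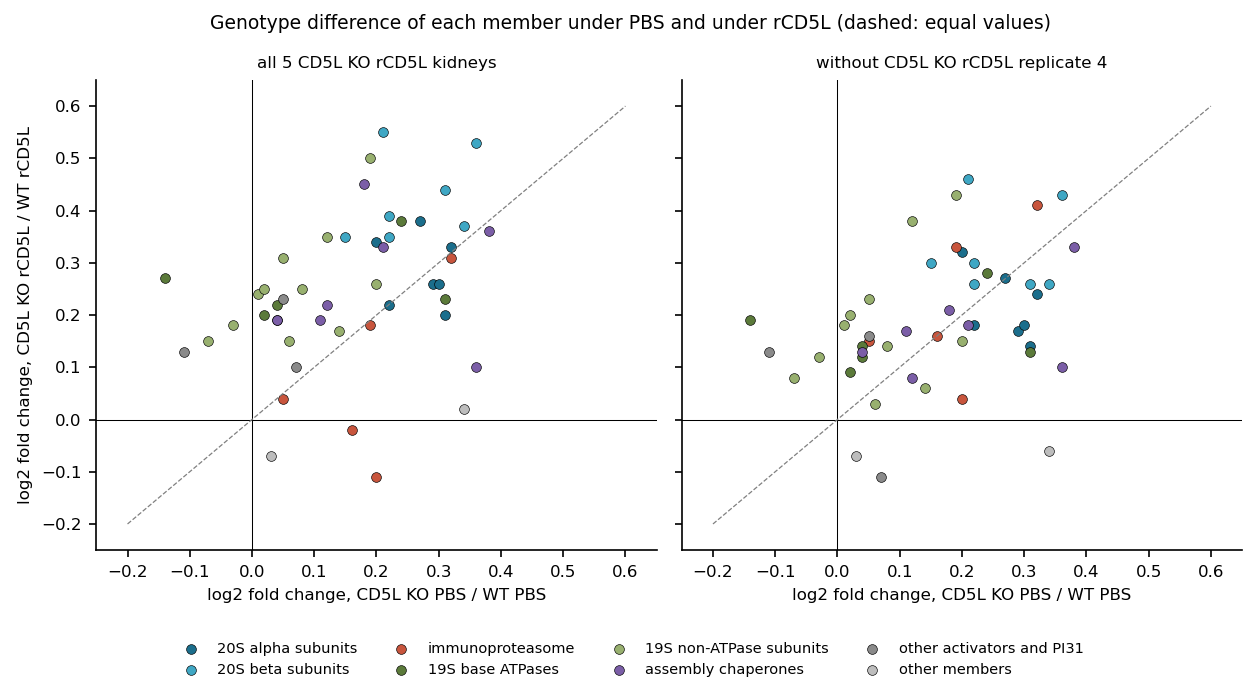
Log2 fold change of 48 members in CD5L KO over WT kidneys under PBS (x axis) and under rCD5L (y axis), with all kidneys (left) and without CD5L KO rCD5L replicate 4 (right). Of the 48 members, 41 had the same sign in both comparisons in either panel, and the core subunits lie in the upper right.

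The effect of rCD5L in WT mice was compared next. Of 48 members tested, 38 were lower and 10 higher with rCD5L (51.3% of all genes were higher), and the median log2 fold change was -0.08, while the median of all genes rounded to 0. No member was called by edgeR, and no other gene was (0.0%). At an unadjusted p under 0.05, 11 members were lower (7.71% of all genes were lower), and DESeq2 called 5 of them (Psmd8, Psmc1, Psmb5, Psmc4 and Psmb2), against 1.76% of all genes called lower. All 14 core and 16 of 17 regulatory subunits were lower. In 5 members every rCD5L kidney lay below every PBS kidney (1.91% of all genes), and in none above (1.69%). Psmc1, an ATPase of the base, was at 168, 163, 154, 160 and 161 CPM under PBS and at 142, 154, 136, 143 and 133 under rCD5L (-0.18, SE 0.0476, adjusted p = 0.121). Psmd8, a lid subunit, was at 226, 230, 218, 207 and 205 against 187, 198, 198, 191 and 183 CPM (-0.17, adjusted p = 0.121). Psmb5 was at 119, 112, 127, 113 and 117 CPM against 103, 112, 92.6, 106 and 95.1 (-0.20, adjusted p = 0.129), with the highest rCD5L kidney just under the lowest PBS kidney. Psmb6 gave -0.18, Psmb7 -0.07, Psma3 -0.10 and Psmg1 -0.15, and Psme3 gave 0.10, none of which passed.

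Of the 5 immunoproteasome genes, 3 had a positive and 2 a negative fold change in these WT kidneys. Psmb8 was at 67.2, 65.1, 64, 74.8 and 64.1 CPM under rCD5L (0.23, adjusted p = 0.406), above 4 of the 5 PBS kidneys and below the fifth, replicate 1. Psmb9 was at 42.4, 37.5, 36.8, 41.1 and 42 CPM under rCD5L (0.27, adjusted p = 0.38). Without WT PBS replicate 1, Psmb8 and Psmb9 were the 2 members called, with 0.40 and 0.47, against 0.131% of all genes called higher. That kidney held the highest Psmb8 and Psmb9 of its group (84 and 51.1 CPM). It was the sole kidney of this comparison without which any gene was called (39 genes). With all kidneys, Psmb10 gave 0.04 and Psme2 -0.26. The summed level of 3 leukocyte markers was 395 to 452 CPM under rCD5L and 339 to 436 under PBS, with the value of 436 in replicate 1, and that of 10 proximal tubule markers was 1690 to 2580 against 2060 to 3760. Of the leukocyte markers 2 of 3, and of the proximal tubule markers 6 of 10, reached an unadjusted p under 0.05, the former higher and the latter lower, as did 3 of 5 endothelial markers, which were lower, and none was called. All 8 T cell and NK markers were higher (median 0.42, 1 at that threshold), with summed levels of 46.9 to 87.4 CPM under rCD5L and 34 to 73.4 under PBS. Of all genes, 8.31% were higher and 7.71% lower at that threshold. All 12 class I antigen processing genes had positive fold changes (median 0.11) and 4 of 8 interferon signalling genes were higher at an unadjusted p under 0.05, with none called. The part of these genes in the differences was not tested. Over all genes the fold change rose with gene length (Spearman correlation 0.24), and with a length term the median of the members was -0.06, 13 of 14 core subunits were lower and 9 members were lower at an unadjusted p under 0.05. Psmb5 was then at -0.12, Psmc1 at -0.13, Psmd8 at -0.16 and Psmg1 at -0.08, while Psmb8 was at 0.25 and Psmb9 at 0.27.

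In CD5L KO mice rCD5L gave no called member and no called gene (0.0%) among 48 members tested, and DESeq2 called no member and 0.0573% of all genes. The median fold change was 0.04, beside 0.02 over all genes, and -0.05 without CD5L KO rCD5L replicate 4. The sole member at an unadjusted p under 0.05 (2.87% of all genes were, 1.4% higher and 1.47% lower) was Psmd10, at 45.6, 48.4, 50.7 and 44.6 CPM under PBS and at 43, 39.2, 40.5, 41.2 and 42 under rCD5L (-0.21, SE 0.0932, adjusted p = 0.897). The 5 rCD5L kidneys all lay below the 4 PBS kidneys (1.1% of all genes), and in no member did they all lie above (1.25%). Psma1 gave -0.18, Psmc4 0.25, Psmd11 0.23 and Psme3 0.28. Without CD5L KO rCD5L replicate 4 Psmd10 was at -0.20, and the other 4 were at -0.24, 0.19, 0.17 and 0.21. The effect of rCD5L did not differ between the genotypes in any member by the interaction test (49 tested, none called and 0.0% of all genes called, smallest adjusted p = 0.731). The largest differences in effect by p-value were those of Psmc4 (0.42, SE 0.156) and Psmd10 (-0.25, SE 0.111), both at an unadjusted p under 0.05, against 6.25% of all genes (4.41% positive and 1.84% negative), and those of Psma7, Psmb2, Psmd7 and Psmf1 were 0.16, 0.21, 0.23 and 0.26. The interaction was positive in 39 members (53.0% of all genes), with a median of 0.15 (0.02 over all genes), and 0.06 without CD5L KO rCD5L replicate 4. The 6 named differences were then 0.34 for Psmc4, -0.26 for Psmd10, 0.12 for Psma7, 0.15 for Psmb2, 0.16 for Psmd7 and 0.23 for Psmf1. The comparisons within WT and within CD5L KO mice share kidneys with the comparisons between genotypes, and each stands on its own values.

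The balance of immunoproteasome and constitutive core was measured within each kidney as the log2 ratio of FPKM of each immunosubunit to the subunit it replaces, which is free of library size. The ratio of Psmb8 to Psmb5 was 0.232, 0.158, 0.116, 0.148 and 0.152 in WT PBS kidneys and 0.213, 0.191, 0.227, 0.232 and 0.222 in WT rCD5L kidneys. It was 0.196, 0.162, 0.112 and 0.156 in CD5L KO PBS kidneys and 0.169, 0.208, 0.15, 0.0542 and 0.196 in CD5L KO rCD5L kidneys. The WT rCD5L kidneys were thus alike and at the upper end, while WT PBS replicate 1 lay among them. The difference between rCD5L and PBS in WT mice was 0.46 on the log2 scale (two-sided exact permutation test over 5 and 5 kidneys, p = 0.0397, adjusted p = 0.159 over 12 tests). That of Psmb9 to Psmb6 was 0.49 (exact p = 0.0397, adjusted p = 0.159), and that of Psmb10 to Psmb7 was 0.14 (exact p = 0.349, adjusted p = 0.838). For Psmb10 to Psmb7, WT PBS replicate 1 had a log2 ratio of 1.44 and the other WT PBS kidneys 0.579 to 0.913. The WT rCD5L kidneys lay between, at 1.02 to 1.13.

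Between CD5L KO and WT kidneys under PBS the 3 ratios differed by -0.03, -0.01 and -0.10 (exact permutation tests, p = 0.889, 0.937 and 0.746), where the smallest p the design allows is 0.0159. Under rCD5L the difference of CD5L KO from WT kidneys was -0.62 for Psmb8 to Psmb5 (mean log2 ratio -2.82 ± 0.79 against -2.21 ± 0.11, SD, n = 5 each, exact p = 0.0238, adjusted p = 0.159) and -0.53 for Psmb9 to Psmb6 (exact p = 0.0794, adjusted p = 0.238), or -0.27 and -0.25 without replicate 4, with 3 of 5 kidneys below every WT rCD5L kidney in each. For Psmb10 to Psmb7 the difference was -0.29 (exact p = 0.722), with 3 of the CD5L KO kidneys above and 2 below all WT rCD5L kidneys, and it turned to 0.06 without replicate 4. CD5L KO rCD5L replicate 4 had the lowest ratio of the 19 kidneys in all 3 pairs, with 0.0542, 0.0579 and 0.657. Within CD5L KO mice the differences between rCD5L and PBS were -0.12, -0.04 and -0.05, and without that replicate 0.22, 0.25 and 0.30. None of the 12 tests passed after adjustment, and 3 had an unadjusted p under 0.05.

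**Figure D5:**
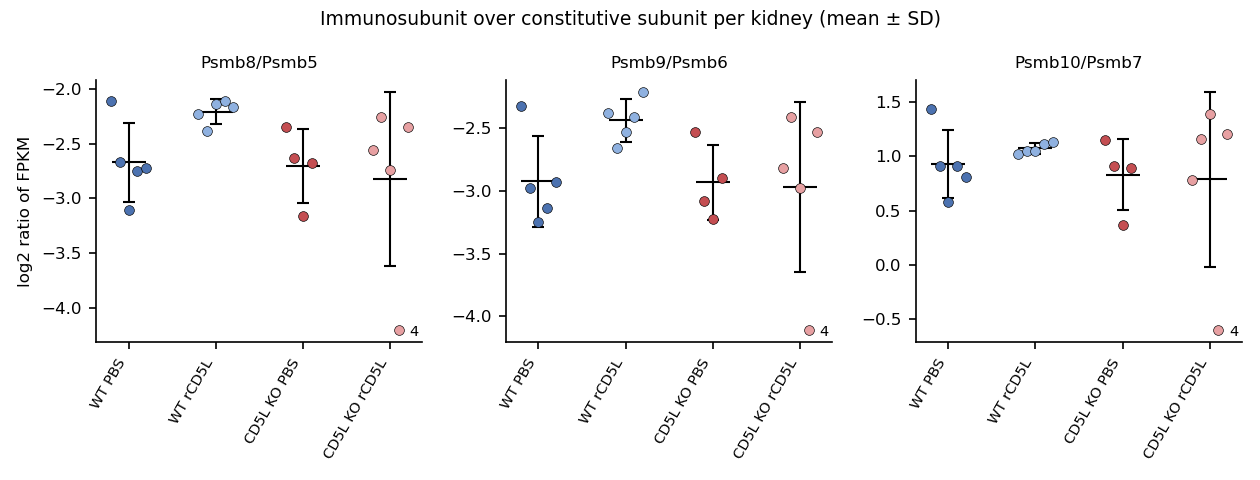
Log2 FPKM ratio of each immunosubunit to its constitutive counterpart (y axis) in each kidney (points), by group (x axis), with mean ± SD and CD5L KO rCD5L replicate 4 marked. WT rCD5L kidneys lie close together, with an SD of 0.11, 0.17 and 0.05 in the 3 panels, and the marked kidney lies below all others.

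Across the 19 kidneys 6 pairs of genes were compared on log2 CPM, and p-values came from permutations and were adjusted over the 6. Psmb9 and Tap1, the peptide transporter subunit next to it, rose and fell together (Pearson's r = 0.94, Spearman's rho = 0.944, permutation p = 1e-05 for each, the smallest these permutations can give, adjusted p = 6e-05), and r was 0.96 after group means were removed and 0.917 without the 2 kidneys farthest in Tap1. Both genes overlap, so reads could be shared, and whether strand was used in counting is not given in the sources used here. Psmb8 and Ptprc, the pan-leukocyte CD45 gene, had r = 0.457 (permutation p = 0.058, adjusted p = 0.087) and rho = 0.665 (permutation p = 0.00244, adjusted p = 0.00488). Without the 2 kidneys farthest in Ptprc, CD5L KO rCD5L replicates 3 and 4, r was 0.842 (permutation p = 6e-05, adjusted p = 0.00018). Psmb8 and its counterpart Psmb5 had r = -0.106 (permutation p = 0.651, rho = -0.0281, permutation p = 0.911). Psme1 and Psme2, which form 1 complex, had r = 0.466 (permutation p = 0.0467, adjusted p = 0.087) and rho = 0.525 (permutation p = 0.023, adjusted p = 0.0345). Their rho was 0.453 (permutation p = 0.0704, adjusted p = 0.106) without the 2 kidneys farthest in Psme2, WT PBS replicate 5 and WT rCD5L replicate 5, and 0.391 (permutation p = 0.0982, adjusted p = 0.118) with group means removed.

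Psmb5 and the ATPase Psmc2 had r = 0.69 (permutation p = 0.00272, adjusted p = 0.00816) and rho = 0.789 (permutation p = 0.00014, adjusted p = 0.00042). Without CD5L KO rCD5L replicate 4 and WT rCD5L replicate 5, r was 0.506 (permutation p = 0.0455, adjusted p = 0.0682) and rho was 0.73 (permutation p = 0.00131, adjusted p = 0.00262). Psmb5 and Lrp2, the proximal tubule receptor megalin, had r = 0.445 (permutation p = 0.0828, adjusted p = 0.0994) and rho = 0.0719 (permutation p = 0.773), and r was -0.116 without CD5L KO rCD5L replicate 4 and WT PBS replicate 3. The kidneys come from 4 groups that differ in several of these genes, and a pooled correlation mixes differences between and within groups. With group means removed, r was 0.515 for Psmb8 and Ptprc (permutation p = 0.0289, adjusted p = 0.0577) and 0.53 for Psmb5 and Psmc2 (permutation p = 0.0286, adjusted p = 0.0577). Spearman's rho was then 0.537 for Psmb8 and Ptprc (permutation p = 0.0191, adjusted p = 0.0382) and 0.647 for Psmb5 and Psmc2 (permutation p = 0.00351, adjusted p = 0.0105).

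The remaining members were measured too. Psmc3ip, a recombination protein, had 5.26 ± 0.63 CPM in WT and 6.71 ± 0.523 in CD5L KO kidneys under PBS, with no overlap, and did not pass. Psma8, with 0 to 20 counts per kidney, passed the filter on low counts in the genotype comparison under PBS and in the interaction and was called in neither. A further 4 rows of the table, which carry Psm symbols but are pseudogenes, held at most 3 counts per kidney.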

How the data were processed

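Bulk RNA-seq of 19 obstructed kidneys was used. Per the labels and methods, the authors trimmed reads with Trimmomatic, aligned them to the mouse genome (GRCm38/mm10) with HISAT2, counted them with featureCounts and used DESeq2. Versions, strand and multi-mapping settings are not given in the sources used here. The authors deposited raw read counts and FPKM (counts divided by gene length and scaled library size) in separate tables. Total counts of 17917491 to 23847090 per kidney limit the precision, and a count of 0 allows up to 3. The labels call the kidneys biological replicates.

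The count test was edgeR's (version 4.0.16, under R 4.3.3, with TMM scaling, filterByExpr with a minimum of 10, quasi-likelihood test, Benjamini-Hochberg adjustment over all genes tested, threshold 0.05), with the kidneys of the compared groups only, and of all 4 groups for the interaction. CPM used TMM-scaled library sizes. Ratios were tested by two-sided exact permutation, and gene pairs with 100000 permutations (scipy 1.17.1, numpy 2.4.6). The procedure was run on simulated data with planted differences much larger than those called here, so that run does not show how differences of this size are recovered. Alternatives were DESeq2 1.42.0, limma 3.58.1 on log2(FPKM + 1) and log2(FPKM + 0.1), other size factors and filters, a gene length offset, a replicate block and leaving out each kidney. Promoter entries came from RefSeq (GRCm38.p6).

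The members and lists were chosen with earlier results of these data known. Named were the 5 immunoproteasome genes, Psmb5, Psmb6 and Psmb7, in each other class the 2 genes with the smallest p under PBS and the gene with the smallest p in each other comparison, every member called, and fixed genes of the context lists. Those outside this rule are said to be so or are given without a fold change. Not every named gene is given with a fold change in every comparison. The immunoproteasome genes, Psmb5, Psmb6 and Psmb7 have none here for rCD5L within CD5L KO mice or for the interaction.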

Additional observations from a re-analysis of the deposited data

Results flagged for a closer look

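Of 152 groups of kidneys looked at over 38 genes and ratios, 11 held a kidney whose gap to its nearest neighbour exceeded Dixon's 95% critical value. Chance gives about 1 in 20 groups. WT PBS replicate 1 was the highest of its group for Psmb8 (84 CPM), Psmb9 (51.1 CPM), Psmb10 (112 CPM) and the FPKM ratio of Psmb9 to Psmb6 (0.2). CD5L KO rCD5L replicate 4 was the highest of its group for Psmb7 (154 CPM), Psmd5 (98 CPM), Psma2 (174 CPM) and Psmc1 (208 CPM). WT rCD5L replicate 2 was the highest for Psmb4 (190 CPM), WT rCD5L replicate 1 the lowest for Psmd11 (72.1 CPM) and CD5L KO PBS replicate 4 the lowest for Psmg1 (20.6 CPM).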

How the results depend on the processing

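Counts of calls are given here with the share of all genes called in the same fit, in either direction. For CD5L KO over WT under PBS, the 18 calls were 18 with DESeq2's size factors (10.6%) or at least 10 counts in every kidney (12.4%). They were 15 of the 18 without a filter (5.03%) or with limma on FPKM (8.87% and 8.86%), and 20 members were called with DESeq2 (14.9%). With all 19 kidneys in 1 fit 0 were called (0.065%), and 11 (4.03%) with CD5L KO rCD5L replicate 4 left out of it, chosen after seeing the data. Leaving out each kidney gave 12 (without CD5L KO PBS replicate 1 or WT PBS replicate 4) to 20 calls, against 5.81% to 11.8% of all genes. The median fold change was then 0.13 (without CD5L KO PBS replicate 1) to 0.21. Of the 18 genes, 12 were called in all 9 of these fits, and Psmb5 in 2, Psmb4, Psmb6 and Psmg4 in 3, Psma7 in 5 and Psmd6 in 6. The length offset gave a median of 0.11, and 0.12 with the block. Psme1 became -0.01 and -0.02 in these fits and -0.03 without CD5L KO PBS replicate 1, and Psmb2 was 0.00 with length offset and block.

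In WT mice, DESeq2 called 5 members (3.11% of all genes), and leaving out each kidney gave 0 to 2 calls (0.0% to 0.222%). Psmb10 became -0.02 and -0.01 without WT PBS replicate 3 or 4, while the highest Psmb10 level of that group was in replicate 1 (112 CPM). Under rCD5L, CD5L KO against WT gave 2 calls with DESeq2 (0.864%), 15 with all 19 kidneys (7.0%) and 8 without CD5L KO rCD5L replicate 4 in that fit (3.69%). Psmb8 became 0 with all 19, 0.16 without replicate 4 in either fit, and 0.02 without CD5L KO rCD5L replicate 1 or WT rCD5L replicate 4 (leave-one-out range -0.19 to 0.16), and Psmb9 0.04 without CD5L KO rCD5L replicate 4 in either fit (range -0.19 to 0.04). The median interaction ranged from 0.06 to 0.21 over fits leaving out a kidney.

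Leaving out each kidney, the difference in Psmb8 to Psmb5 ranged from -0.15 to 0.12 (CD5L KO PBS against WT PBS) and -0.27 to 0.22 (CD5L KO rCD5L against CD5L KO PBS), that in Psmb9 to Psmb6 from -0.14 to 0.14 and -0.18 to 0.25, and that in Psmb10 to Psmb7 from -0.20 to 0.06 and -0.20 to 0.30, and from -0.44 to 0.06 between genotypes under rCD5L. Gene pair correlations became 0.842 (Psmb8 and Ptprc), 0.506 (Psmb5 and Psmc2) and -0.116 (Psmb5 and Lrp2) without the 2 farthest kidneys, and 0.53 (Psmb5 and Psmc2) with group means removed. The cause was not tested.

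Same-numbered kidneys did not deviate together (correlations -0.187 to 0.174). In 6 of 54 comparisons of a kidney with another group, it correlated best with the kidney of its own number. With a replicate block 18 members were called under PBS, 17 of the 18 and 1 other, against 12.1% of all genes.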
